A study of Mus musculus with 9 samples.

Results

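Genes that are known to differ between C57BL/6 (B6) substrains or colonies were followed in RNA sequencing of splenic regulatory T cells (Treg cells) from mice with and without a floxed Esrrg gene. The members are Nnt, Wdfy1, Entpd4, H13, Cyfip2, Tmem181b-ps and Tmem181a, and a row of the count table was taken where its symbol was one of these names. Of the 7 genes, 6 had a row among the 26683 genes of the table, and all 6 entered the test. Entpd4 had no row under that symbol and was not analysed here. The 7 genes were chosen by name with the KO and WT CPM of these same libraries in view, so their differences between the groups are given as a description and not as a test.

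The 5 control mice (WT) were of the strain labelled B6N.Foxp3YFP-Cre. The 4 mice called KO were labelled EsrrgNf/f.Foxp3YFP-Cre and carry a floxed Esrrg gene in addition. Both groups share the Foxp3YFP-Cre allele, in which Foxp3, the gene of the transcription factor that defines Treg cells, drives a yellow fluorescent protein with Cre recombinase, so that Cre acts in Treg cells. All mice were labelled as females of 2 to 3 months, and each library holds sorted CD4+Foxp3+ cells of 1 spleen, untreated as far as the labels say. Every bracketed library name begins with B6-N in WT and with Err in KO. The labels do not say in which substrain the floxed allele was made. With all KO mice in 1 line and all WT mice in the other, a difference of background between the lines and the effect of the Esrrg allele cannot be told apart.

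B6 mice were split long ago into colonies that have since collected their own mutations, and C57BL/6J and C57BL/6N are the most used of them. The best known of these is in Nnt, which encodes the nicotinamide nucleotide transhydrogenase of the inner mitochondrial membrane. C57BL/6J lacks several internal exons of this gene and makes no working enzyme, whereas C57BL/6N has an intact copy. Cyfip2 carries a missense change in C57BL/6N, which alters the protein and need not alter the amount of RNA. Tmem181a and Tmem181b-ps are duplicated copies next to each other, and duplicated loci can vary in copy number between colonies. Such differences are of use as markers of the background of a line, because an engineered allele is usually made in one substrain and bred into another.

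Tmem181b-ps stood apart from the other members with a row, and among these it is also the one whose sequence is hardest to assign. Tmem181a (mm10, chromosome 17, 6256860 to 6308314, plus strand) encodes a predicted membrane protein with several transmembrane segments. Tmem181b-ps lies 130.2 kb away on the same chromosome (6438524 to 6467022, minus strand) and is annotated by GENCODE M21 as a transcribed unprocessed pseudogene, a duplicated copy with introns that is not listed as coding. The transcripts Tmem181a-204 and Tmem181b-ps-201 were aligned, the second of which is 1413 bases long. Of these bases 1406 were identical, 7 were substituted, and 2 bases of Tmem181a were missing from the pseudogene, so that 99.4% of aligned positions were identical. The alignment covers 1 transcript of each gene, while the annotated exons span 6548 bases for Tmem181a and 4187 bases for Tmem181b-ps. The stretches below hold some of the differences by which a read could be told to come from one copy or the other. They are from the GENCODE M21 transcripts of mm10, written 5′ to 3′, and capitals mark the differing bases. The first pair covers 220 bases (216 to 435 of Tmem181a-204 and 1 to 220 of Tmem181b-ps-201) and holds 4 of the 7 substitutions.
Tmem181a: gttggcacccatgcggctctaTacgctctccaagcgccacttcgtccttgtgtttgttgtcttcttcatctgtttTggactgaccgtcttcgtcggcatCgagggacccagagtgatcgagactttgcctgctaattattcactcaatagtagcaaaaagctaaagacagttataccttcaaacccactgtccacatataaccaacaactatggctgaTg
Tmem181b-ps: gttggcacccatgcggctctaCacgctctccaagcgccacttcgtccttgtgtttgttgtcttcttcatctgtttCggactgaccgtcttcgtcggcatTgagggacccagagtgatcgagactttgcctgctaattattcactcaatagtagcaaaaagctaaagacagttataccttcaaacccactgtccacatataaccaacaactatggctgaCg
The second pair surrounds the missing bases, with 62 bases (764 to 825) of Tmem181a-204 and the matching 60 bases (549 to 608) of Tmem181b-ps-201. The capitals mark the pair of bases that only the Tmem181a transcript has.
Tmem181a: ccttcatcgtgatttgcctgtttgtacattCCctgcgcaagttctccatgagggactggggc
Tmem181b-ps: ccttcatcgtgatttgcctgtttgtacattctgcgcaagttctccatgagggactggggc
Between the capitals of the first pair are runs of more than 50 identical bases. Over all annotated transcripts, 44.4% of the 50-base words of Tmem181b-ps also occur in Tmem181a, and 29.6% of its 100-base words do. Counting every other gene of the annotation, 50.8% of the 50-base words of Tmem181b-ps and 34.4% of those of Tmem181a are shared. Such reads fit both rows, and how they were counted is not stated in the labels. The whole span of Tmem181b-ps also lies within Gm26848, a long non-coding RNA gene on the opposite strand, with 28499 bases of overlap. Gm26848 has no row in the count table, and its part in the reads of Tmem181b-ps was not tested. Of the members with a row, those other than the Tmem181 copies are easier to count. The shared part of their 50-base words was 0.199% for Nnt, 1.66% for Wdfy1, 7.96% for H13 and 0% for Cyfip2. For H13 the partner was Gm26841, an opposite-strand RNA with 2 counts over all libraries.

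Tmem181b-ps was higher in every KO library than in any WT library. Its level, in CPM (its count scaled to the total count of the library), was 13.9, 17.1, 14.6, 22.6 and 16.2 in WT 1 to WT 5. In KO 1 to KO 4 it was 37.5, 42.5, 42.5 and 39.3 CPM. The lowest KO library thus lay well above the highest WT library, and the 4 KO libraries lay within 1.13-fold of each other. The group means were 16.9 ± 3.45 CPM (SD, n = 5) in WT and 40.5 ± 2.46 CPM (SD, n = 4) in KO. The log2 fold change (KO over WT) was 1.26 ± 0.12 (SE), or 2.40-fold with 2.20 to 2.62 at 1 SE to either side. These values rest on 234 to 345 reads per WT library and 633 to 671 per KO library.

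**Figure D1:**
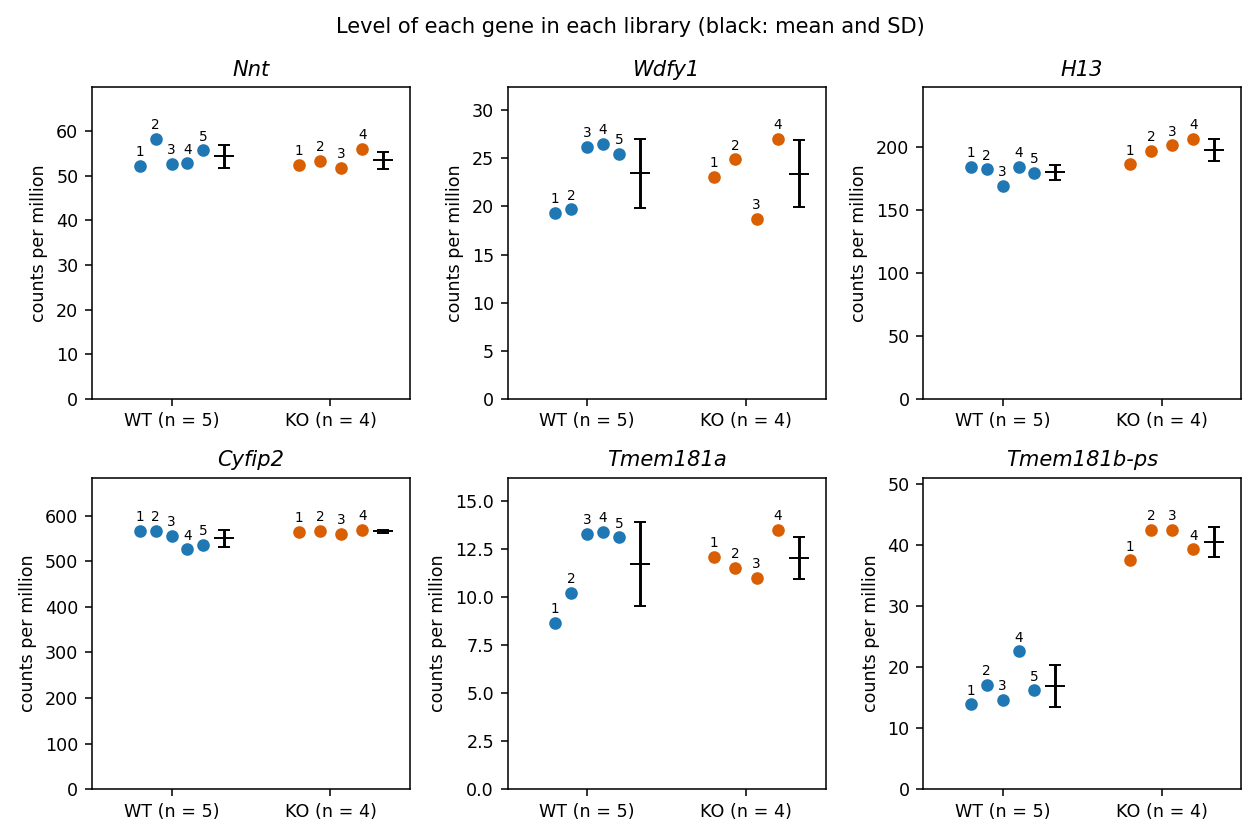
Level of each of the 6 members in the 9 libraries, in CPM on an axis that starts at 0 and differs between panels, with libraries as numbered points (WT blue, KO orange) and the group mean and SD in black. The KO points of Tmem181b-ps (37.5 to 42.5) lie clear of the WT points (13.9 to 22.6), while the groups overlap for Nnt, Wdfy1, Cyfip2 and Tmem181a.

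By edgeR's quasi-likelihood test with Benjamini-Hochberg adjustment, 418 of 12738 tested genes passed an adjusted p of 0.05, which is 3.28%. The share was 1.40% for genes higher in KO and 1.88% for genes lower in KO. Of the 6 members, 1 passed, Tmem181b-ps, and nothing is read from this count because the members were picked with this contrast known. The CPM ranges of WT and KO did not overlap for 9.10% of tested genes, and for 2 members, Tmem181b-ps and H13. Tmem181b-ps passed in all 17 alternative settings, with log2 fold changes of 1.21 to 1.39. These are refits of the same libraries, so they show only how its values depend on the settings and are no further test.

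For its copy Tmem181a the groups overlapped. Tmem181a was at 8.65, 10.2, 13.3, 13.4 and 13.1 CPM in WT 1 to WT 5 and at 12.1, 11.5, 11.0 and 13.5 CPM in KO 1 to KO 4. The means were 11.7 ± 2.18 CPM (SD, n = 5) in WT and 12.0 ± 1.09 CPM (SD, n = 4) in KO, with a log2 fold change of 0.039 ± 0.13 (SE). An interval of 2 SE to either side ran from -0.22 to 0.29 for Tmem181a and from 1.02 to 1.51 for Tmem181b-ps. Summed over both copies and the rarely counted copy Tmem181c-ps described below, the level was 28.7 ± 4.93 CPM in WT and 52.6 ± 1.87 CPM in KO (SD). This sum does not depend on which of the rows a shared read was given to, but it lacks any that were dropped. The summed values of WT, 22.5 to 36.2 CPM, lay below those of KO, 49.9 to 54.0 CPM. Tmem181b-ps supplied 58.7% ± 4.75 of the summed reads in WT and 76.9% ± 2.53 in KO (SD). Per read of Tmem181a there were 1.60, 1.68, 1.10, 1.68 and 1.24 reads of Tmem181b-ps in WT 1 to WT 5. In KO 1 to KO 4 this ratio was 3.10, 3.71, 3.85 and 2.90, so the order of the libraries by ratio also separated the groups. Whether the copies differ in number between the lines was not tested.

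**Figure D2:**
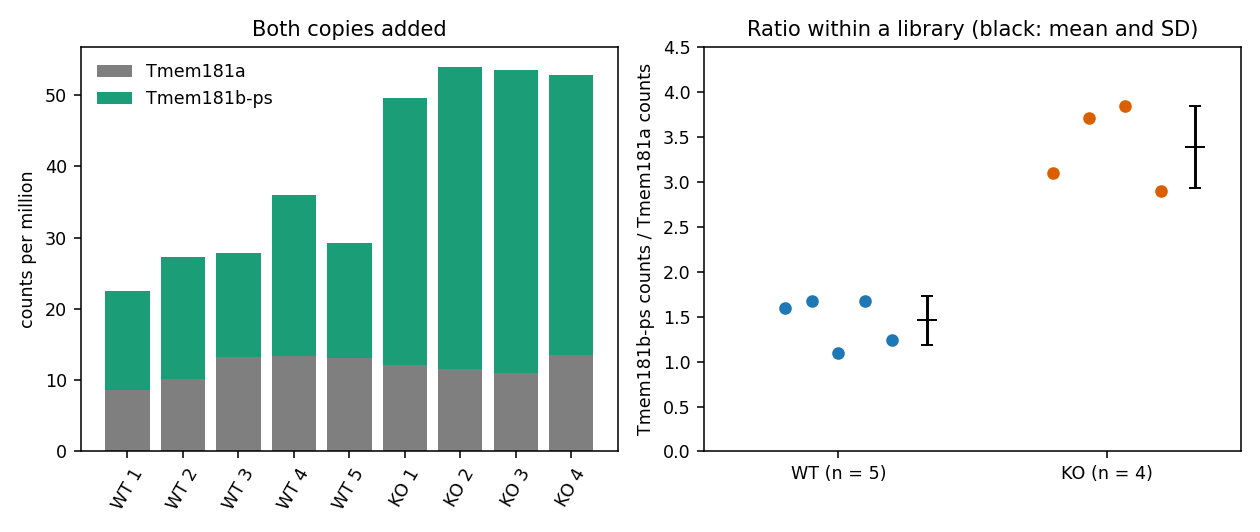
Reads of both Tmem181 copies in each of the 9 libraries, as stacked bars of CPM of Tmem181a (grey) and Tmem181b-ps (green) on the left, and as the ratio of Tmem181b-ps to Tmem181a counts per library with the group mean and SD on the right. Tmem181a stays between 8.65 and 13.5 CPM in all libraries, and the ratio is 1.10 to 1.68 in WT and 2.90 to 3.85 in KO.

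A more distant copy and the Dynlt1 genes that sit among the Tmem181 copies were barely measured. Tmem181c-ps, 95.9% identical to Tmem181a over the aligned bases, had 0 to 4 counts per library. The Dynlt1 genes encode light chains of the dynein motor. Of the list of Tmem181 copies and Dynlt1 genes, 3 entered the test and 0 passed, with a median log2 fold change of -0.022 against 0.0052 for all tested genes. The smallest p-values were those of Dynlt1f (-0.25, edgeR adjusted p = 0.483) and Dynlt1c (0.056, adjusted p = 0.960). Dynlt1a, whose span overlaps the end of Tmem181a by 1975 bases on the opposite strand, had 102 counts over all libraries.

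Nnt differed between the groups by less than the spread among mice. Its product passes electrons from NADH to NADP+ with the help of the mitochondrial proton gradient, which supplies NADPH for the glutathione and thioredoxin systems. Nnt (chromosome 13, 119335448 to 119408997, minus strand) was at 52.2, 58.2, 52.7, 52.8 and 55.7 CPM in WT 1 to WT 5. In KO 1 to KO 4 it was at 52.5, 53.4, 51.8 and 56.1 CPM. All 9 libraries lay within 1.12-fold of each other, and each held 797 to 959 reads of the gene. The means were 54.3 ± 2.57 CPM (SD, n = 5) and 53.5 ± 1.90 CPM (SD, n = 4), with a log2 fold change of -0.024 ± 0.045 (SE) and an interval of -0.11 to 0.07 at 2 SE. The sign turned positive without WT 2 and in the fit with the bracketed library number as a block. A count per gene symbol does not show whether particular exons are present. The build mm10 was made from C57BL/6J, and its longest Nnt model has 17 exons and 834 residues, without the exons that this substrain has lost, so reads from those exons had no place in these counts. The per-symbol value therefore leaves the Nnt allele of either group unread.

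Of genes that supply NADPH or use it in mitochondrial redox reactions, 20 of 23 entered the test, and 2 were higher in KO and 0 lower, beside 1.40% higher and 1.88% lower of all tested genes. The median log2 fold change was 0.084, against 0.0052 over all tested genes. Gsr encodes glutathione reductase, which uses NADPH to reduce oxidised glutathione. It was at 34.3, 34.9, 32.6, 32.8 and 33.7 CPM in WT and at 42.8, 38.4, 35.2 and 45.1 CPM in KO 1 to KO 4 (log2 fold change 0.26, edgeR adjusted p = 0.0469). Gpx1, which encodes a glutathione peroxidase, went from 93.3 ± 6.26 to 109 ± 6.31 CPM (SD; 0.22, adjusted p = 0.0488). Both calls were at the edge of the threshold. Gsr passed in 3 of 9 fits that left out 1 library and Gpx1 in 1 of 9, and without KO 1 and KO 4 neither passed. Without those libraries the log2 fold change of Gsr was 0.14 (edgeR adjusted p = 0.329), and that of Gpx1 was 0.20 (adjusted p = 0.192).

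The libraries KO 1 and KO 4 had higher sums of plasma cell, macrophage and dendritic cell, neutrophil and B cell markers than the rest. Taken singly, Xbp1, Ly6g, Lyz2, Itgax and Cd79b did not follow this order, and the other markers of these lists did. Xbp1 was at 91.6 CPM in KO 1 and at 95.8 CPM in KO 2. Summed plasma cell markers were at 101 to 144 CPM in WT and at 229, 127, 146 and 596 CPM in KO 1 to KO 4, and 1 of the 4 markers, Xbp1, passed the test. Xbp1 passed in 3 of 9 fits that left out 1 library, and without KO 1 and KO 4 its log2 fold change went from 0.25 to 0.20 (edgeR adjusted p = 0.0778). Macrophage and dendritic cell markers summed to 53.3 to 109 CPM in WT and to 144, 69.9, 85.1 and 198 CPM in KO, and neutrophil markers to 0.243 to 2.29 CPM in WT and 10.8, 0.190, 1.82 and 17.9 CPM in KO. B cell markers summed to 17.4 to 22.1 CPM in WT and 31.2, 21.6, 18.1 and 27.1 CPM in KO. The other lists did not follow this order. CD8 T cell markers were at 9.83 to 13.6 CPM in WT and 11.9, 12.6, 12.3 and 13.9 CPM in KO, and NK cell markers at 4.19 to 5.04 CPM in WT and 7.17, 5.32, 4.35 and 4.04 CPM in KO. Erythroid markers were at 3.01 to 14.8 CPM in WT and 19.8, 1.58, 2.99 and 11.2 CPM in KO. Xbp1 was the only tested marker of these 7 lists that passed, and no marker with a row was at 0 in all libraries. Gsr was highest in these same libraries, and the part of other cells in it was not tested. Tmem181b-ps was at 42.5 CPM in both KO 2 and KO 3. Among KO, these libraries had the lowest sums of plasma cell, macrophage and dendritic cell, neutrophil and B cell markers, but not of CD8 T cell or NK cell markers. The log2 fold change of Tmem181b-ps without KO 1 and KO 4 was 1.35, and the part of other cells in it was not tested. The Treg markers were high in every library, with Foxp3 at 573 ± 30.8 CPM in WT and 574 ± 25.7 CPM in KO (SD), and 0 of 7 passed. Library totals were 15269014 to 17425634 counts, and Esrrg had 0 counts in all 9 libraries. KO 4 had 27 counts of Xist, the RNA of the inactive X chromosome, against 27355 to 35693 in the others. That count is at odds with the female label of KO 4, and its cause was not tested. In bulk RNA, fewer cells with a transcript and less of it per cell cannot be told apart.

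Wdfy1 differed more between mice of 1 group than between the groups. It encodes a FYVE and WD-repeat protein of early endosomes that takes part in Toll-like receptor signalling, and it lies on chromosome 1 (79702262 to 79776143, minus strand), 108 Mb from Esrrg. Its level was 19.3, 19.7, 26.2, 26.5 and 25.5 CPM in WT 1 to WT 5 and 23.1, 24.9, 18.7 and 27.0 CPM in KO 1 to KO 4. WT 1, WT 2 and KO 3 were low and the other libraries higher. The 95% Poisson intervals of the low libraries, 17.2 to 21.5 CPM in WT 1, 17.6 to 22.0 CPM in WT 2 and 16.6 to 21.0 CPM in KO 3, cover counting error only. The group means were 23.4 ± 3.62 CPM (SD, n = 5) and 23.4 ± 3.52 CPM (SD, n = 4). The log2 fold change was 0.0013 ± 0.12 (SE), with an interval of -0.25 to 0.25 at 2 SE, and its sign was the other one in 9 of 17 alternative settings. Mrpl44, which overlaps Wdfy1 by 126 bases on the opposite strand, was at 19.7 CPM in WT 1, 19.4 CPM in WT 2 and 22.7 CPM in KO 3, and at 21.7 to 22.9 CPM in the other libraries. Its lowest values were thus also in WT 1 and WT 2, and the part of the overlap in the Wdfy1 values was not tested. Relatives of Wdfy1 and adaptors of Toll-like receptors had 0 of 9 past the test, with a median of 0.069. The smallest p-values were those of the ubiquitin ligase gene Traf6 (-0.16, edgeR adjusted p = 0.130) and Wdfy2 (-0.19, adjusted p = 0.277).

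H13 values of WT and KO did not overlap, but the difference was small. It encodes signal peptide peptidase, a protease that cuts leftover signal peptides within the membrane of the endoplasmic reticulum, and peptides of it form a minor histocompatibility antigen. H13 (chromosome 2, 152669461 to 152708670, plus strand) was at 184, 182, 169, 184 and 179 CPM in WT 1 to WT 5. In KO 1 to KO 4 it was at 186, 197, 201 and 206 CPM. KO 1 lay next to the highest WT libraries. The means were 179.7 ± 6.24 CPM (SD, n = 5) and 198 ± 8.42 CPM (SD, n = 4), a log2 fold change of 0.14 ± 0.044 (SE) or 1.10-fold. The adjusted p of H13 was 0.103 with edgeR, 0.0606 to 0.342 over the alternative edgeR fits and 0.0517 with DESeq2, and it passed in none. The retrogene Mcts2 lies inside H13 on the same strand and had 671 counts over all libraries, against 2778 to 3317 counts of H13 in each. Beside 3.28% of all tested genes, other intramembrane proteases, the presenilin and signal peptide peptidase relatives, had 1 of 9 past. This was Psen2, a catalytic subunit of gamma-secretase, at 125, 128, 129, 125 and 127 CPM in WT and 179, 138, 148 and 150.3 CPM in KO (log2 fold change 0.28, edgeR adjusted p = 0.0258). It was highest in KO 1, passed in 4 of 9 fits that left out 1 library, and without KO 1 and KO 4 had a log2 fold change of 0.19 (adjusted p = 0.0778). The median of that list was 0.11, against 0.0052 over all tested genes.

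Cyfip2 was the most abundant member and among the steadiest. Its product is a subunit of the WAVE regulatory complex, which joins the GTPase Rac to branching of actin filaments. Cyfip2 (chromosome 11, 46193850 to 46312859, minus strand) was at 567, 567, 555, 526 and 536 CPM in WT 1 to WT 5 and at 565, 567, 560.4 and 569 CPM in KO 1 to KO 4. The KO values lay within the upper part of the WT range or just above it. The means were 550.1 ± 18.4 CPM (SD, n = 5) and 566 ± 3.79 CPM (SD, n = 4), and the log2 fold change was 0.039 ± 0.037 (SE), with an interval of -0.03 to 0.11 at 2 SE. These counts hold no information on the missense change, which alters 1 codon. Of the WAVE complex and its Rac activators, 0 of 10 passed, with a median of 0.031. Cyfip1, the paralog of Cyfip2, had a log2 fold change of 0.21 (edgeR adjusted p = 0.180) and the small subunit gene Brk1 one of 0.12 (adjusted p = 0.161).

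Entpd4, which encodes a nucleoside diphosphatase of the Golgi and lysosomes, has a twin on the same chromosome. The annotation places Entpd4 on chromosome 14 at 69337174 to 69367270 and Entpd4b, 188 kb further on, at 69555424 to 69585520. The transcripts Entpd4-206 and Entpd4b-204 are both 3589 bases long and differ at 0 positions, and 100% of the 50-base and 100-base words of Entpd4 occur in Entpd4b. A row named Gm21685, an older RefSeq name of Entpd4b, held 1 count over all libraries. No level of Entpd4 is therefore given. Other ectonucleotidases and relatives had 0 of 6 past, with a median of -0.027, and the smallest p-values were those of Entpd7 (0.20, edgeR adjusted p = 0.227) and Entpd6 (-0.068, adjusted p = 0.428).

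The members covered a wide range of levels, which were compared between genes only per kilobase of annotated exon. In WT the order was Cyfip2 at 77.4 ± 2.59, H13 at 20.2 ± 0.702, Nnt at 7.72 ± 0.365, Tmem181b-ps at 4.03 ± 0.824, Wdfy1 at 3.61 ± 0.558 and Tmem181a at 1.79 ± 0.333 CPM per kb (SD, n = 5). Tmem181b-ps and Wdfy1 did not differ beyond their spread in WT. In KO the order was the same but for Tmem181b-ps, which at 9.66 ± 0.587 CPM per kb stood above Nnt at 7.60 ± 0.270 (SD, n = 4).

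**Figure D3:**
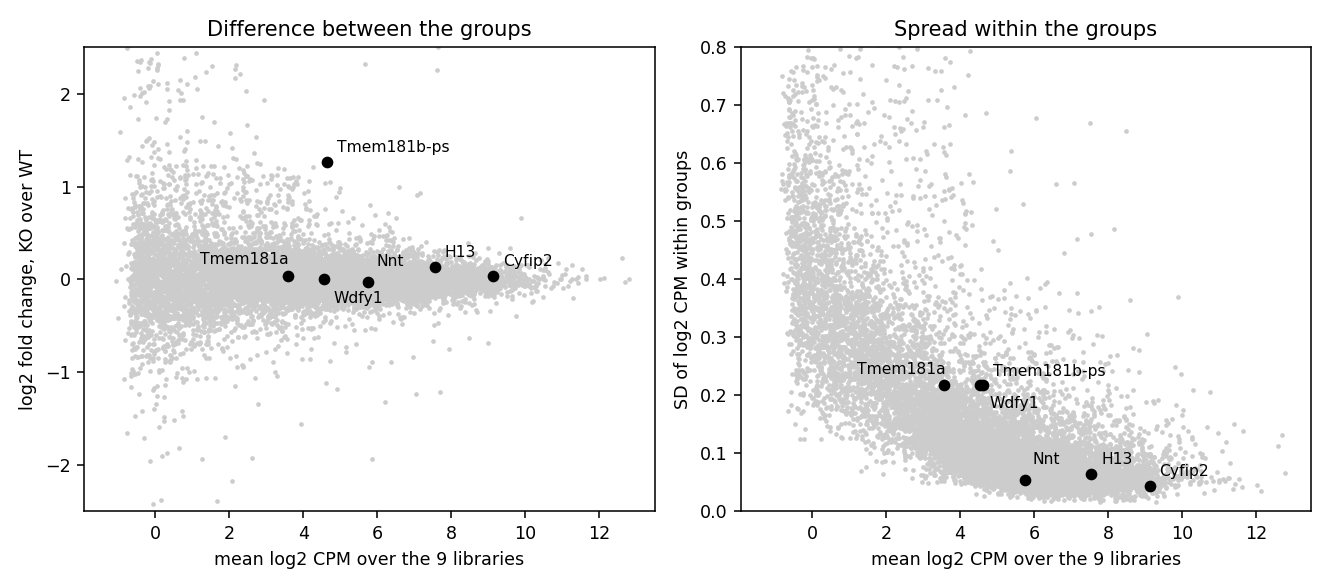
Log2 fold change (left) and SD of log2 CPM within groups (right) against mean log2 CPM for the tested genes in grey and the 6 members in black, with 54 genes outside the plotted fold changes and 295 outside the plotted spread. Tmem181b-ps, at a log2 fold change of 1.26, stands outside the band of genes of its level, and it shares a within-group SD near 0.22 with Wdfy1 and Tmem181a.

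The spread between mice of 1 group fell into a low and a high set. The coefficient of variation in WT was 4.72% for Nnt, 3.47% for H13 and 3.34% for Cyfip2, against 15.5% for Wdfy1, 20.5% for Tmem181b-ps and 18.6% for Tmem181a. At the mean count over all 9 libraries, counting alone would give 3.38% for Nnt, 5.14% for Wdfy1, 4.76% for Tmem181b-ps and 7.22% for Tmem181a. For Tmem181b-ps that mean includes the higher KO counts, so its counting error in WT is larger than this value. Of the 1000 tested genes nearest in level to each, 93.5% had a smaller within-group SD than Wdfy1 and 94.5% a smaller one than Tmem181b-ps, but 16.3% a smaller one than Nnt. In KO the coefficient of variation of Tmem181b-ps was 6.08% and that of Tmem181a 9.06%. Wdfy1 and Tmem181a, on different chromosomes, had their lowest WT values in the same libraries, WT 1 and WT 2, and their lowest KO value in KO 3.

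Genes near the members were compared between the groups as well. They were not themselves used to choose the members. They lie beside members that were chosen with this contrast in view, so they are not an independent choice. Within 500 kb of the 6 members, with the Tmem181 copies taken as 1 locus, 112 genes had a row and 49 entered the test. Of these 3 passed, all lower in KO, which is 6.12% against 3.28% of all tested genes, and the median log2 fold change was 0.00064 against 0.0052. Around Wdfy1, H13 and Cyfip2 0 of 6, 0 of 15 and 0 of 10 neighbours passed, around Nnt 1 of 5, and around the Tmem181 copies 2 of 13. Without KO 1 and KO 4, with 2 KO libraries left, 0 of 51 tested neighbours passed, while the log2 fold changes of the 3 genes were -0.96 for Synj2, -0.14 for Tulp4 and -0.31 for 4833420G17Rik.

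Synj2, a phosphoinositide phosphatase gene 213 kb from Tmem181a (chromosome 17, 5941280 to 6044290), showed the clearest difference among the neighbours that passed. It was at 82.7, 66.6, 83.9, 59.7 and 89.1 CPM in WT 1 to WT 5 and at 45.4, 37.6, 40.5 and 41.7 CPM in KO 1 to KO 4. Every KO library thus lay below every WT library. The means were 76.4 ± 12.6 and 41.3 ± 3.23 CPM (SD, n = 5 and 4), and the log2 fold change was -0.89 ± 0.12 (SE, edgeR adjusted p = 0.00767). Synj2 passed in 9 of 9 fits that left out 1 library and without KO 1 and KO 4 had a log2 fold change of -0.96 with an adjusted p of 0.0778. Tulp4, a gene of the tubby-like family that lies between Synj2 and Tmem181a and 5.73 kb from the latter, went from 66.8 ± 1.62 to 60.1 ± 1.38 CPM (SD; log2 fold change -0.15, edgeR adjusted p = 0.0494). That call was lost in all but 2 of 9 such fits. So on chromosome 17 Synj2 and Tulp4 were lower in KO, Tmem181a was level between the groups and Tmem181b-ps was higher.

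Near Nnt the gene model 4833420G17Rik, 53.8 kb away, was at 126, 111, 143, 129 and 137 CPM in WT 1 to WT 5 and at 107, 105, 101 and 106 CPM in KO 1 to KO 4. Its log2 fold change was -0.30 ± 0.060 (SE, edgeR adjusted p = 0.0214), and it passed in 4 of 9 fits that left out 1 library. Paip1, which lies between that gene and Nnt and encodes a partner of the poly(A)-binding protein, had a log2 fold change of -0.039 (adjusted p = 0.749).

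**Figure D4:**
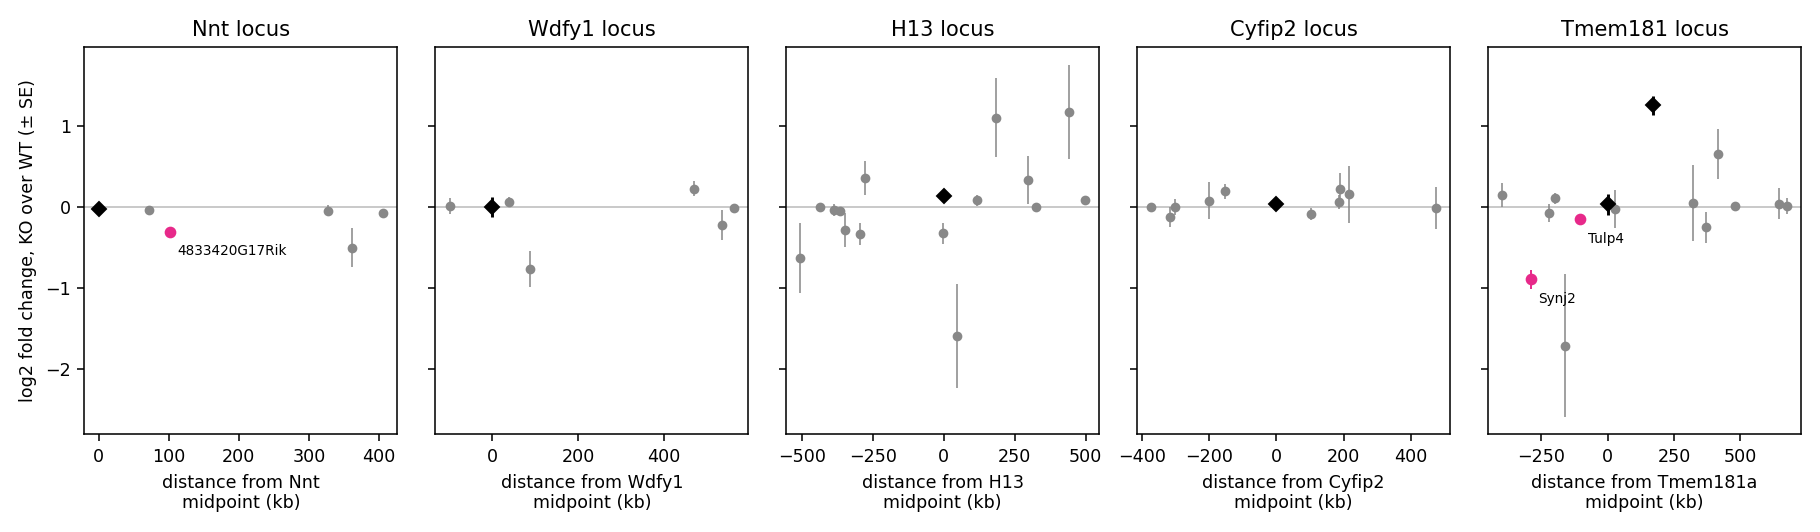
Log2 fold change (KO over WT) of the tested genes within 500 kb of each locus against the distance of their midpoint from that of the member (Tmem181a at the Tmem181 locus) in kb, with lines for 1 SE, members as black diamonds, and neighbours in pink with their names where they passed the test and in grey where they did not. The 3 neighbours that passed, Synj2, Tulp4 and 4833420G17Rik, lie below 0, at -0.89, -0.15 and -0.30.

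At the loci where no neighbour passed, the nearest tested genes on each side did not pass either. Beside Wdfy1, Ap1s3, an adaptor subunit of vesicle coats, had a log2 fold change of 0.017 (edgeR adjusted p = 0.939), and Serpine2, a protease inhibitor gene, was at 1.60 ± 0.242 CPM in WT and 0.940 ± 0.195 CPM in KO (SD; -0.76, adjusted p = 0.0825). Beside H13, Zcchc3 had 0.36 (adjusted p = 0.341) and Id1, which encodes an inhibitor of helix-loop-helix factors, -1.59 (adjusted p = 0.188), with WT 2 at 4.79 CPM and the other libraries at 0.455 to 1.60 CPM. Beside Cyfip2, the metalloprotease gene Adam19 had 0.20 (adjusted p = 0.233).

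Other genes and loci that are reported to vary between B6 substrains or colonies formed a list of 10, of which 5 entered the test. Of these 3 were higher in KO and 0 lower, beside 1.40% higher and 1.88% lower of all tested genes. The median log2 fold change was 0.35, against 0.0052 over all tested genes. The list was drawn up with earlier results of these libraries known, so its count is no independent evidence. The genes that passed, Ide, Fgfbp3 and Btaf1, are neighbours on chromosome 19, where a segment with Ide and Fgfbp3 is duplicated in some B6 colonies. Ide, which encodes the insulin-degrading enzyme, was at 109, 115, 104, 105 and 103 CPM in WT and at 211, 188, 198 and 218 CPM in KO (log2 fold change 0.93 ± 0.048, SE). Fgfbp3, which encodes a binding protein of fibroblast growth factors, was at 0.819 ± 0.305 CPM in WT and 3.13 ± 0.136 CPM in KO (SD; 1.93, edgeR adjusted p = 0.00262). Btaf1, which encodes a regulator of TATA-binding protein, was at 111 ± 3.00 and 140.3 ± 4.81 CPM (SD; 0.34, adjusted p = 0.00106). Neither Dock2 nor Naip2 passed. Dock2, a Rac activator gene of lymphocytes that is altered in some C57BL/6N colonies, was at 938 ± 21.8 CPM in WT and 929.6 ± 15.8 CPM in KO (SD; -0.014, adjusted p = 0.860), and Naip2 had a log2 fold change of 0.35 (adjusted p = 0.0547).

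Tested genes were also ranked by how closely their values over the 9 libraries followed a member whose groups did not overlap, by the root-mean-square difference of centred log2 CPM. Closest to Tmem181b-ps, whose own root-mean-square deviation was 0.662, were Ide (0.278), the cofilin gene Cfl2 (0.291) and the centrosome gene Cep112 (0.351), which lie on chromosomes 19, 12 and 11. The highest WT library was WT 4 for Tmem181b-ps (22.6 CPM), WT 2 for Ide (115 CPM), WT 3 for Cfl2 (27.6 CPM) and WT 5 for Cep112 (1.45 CPM). Closest to H13, whose own deviation was 0.0880, were the catalase gene Cat (0.0289), Tmbim6 (0.0355), which encodes a membrane protein of the endoplasmic reticulum, and Caprin1 (0.0356), an RNA-binding protein gene. Cat and Caprin1 lie on chromosome 2, as H13 does, but neither is among the tested genes within 500 kb of it, and Tmbim6 lies on chromosome 15. In the main edgeR fit neither Cat (adjusted p = 0.113) nor Tmbim6 (0.0674) nor Caprin1 (0.124) passed.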

How the data were processed

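The members and gene lists were chosen with earlier results of these data known. Libraries were stranded (TruSeq), according to the protocols in the labels. The values are raw counts for each gene symbol in a single table that the authors deposited, and all 9 columns matched 1 sample each by title. STAR 2.7, DESeq2 and the build mm10 are listed in the submitters' processing notes, with no role given. Which program counted the reads, with which annotation and strand setting, is not stated there, so reads of overlapping genes or near-identical copies may stand in either row. CPM was computed from the counts and library totals, and 3 counts equal 0.172 to 0.196 CPM. The test was that of edgeR 4.0.16 under R 4.3.3 (robust quasi-likelihood fit, trimmed-mean scaling, default expression filter, Benjamini-Hochberg adjustment, two-sided, threshold 0.05), with DESeq2 1.42.0, other scalings, no filter, replicate blocks and left-out libraries as alternatives. The script was tested on simulated data. Each SE was worked out from F and the fold change. Log2 CPM for spread and likeness used a prior count of 2. Each library is 1 mouse, per the labels. Intervals cover counting error only, since no molecular identifiers are mentioned. Genes were placed with GENCODE M21 for mm10. Named were the members, the called genes of each list (otherwise the 2 with the smallest p), called neighbours within 500 kb (otherwise the nearest on each side) and, for members whose groups did not overlap, the 3 genes most like them. Mrpl44, Tmem181c-ps, Dynlt1a, Mcts2, Gm26841, Paip1, Dock2 and Naip2 were named in addition, after their values were seen. Some genes that this rule would name are not reported here.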

Additional observations from a re-analysis of the deposited data

Results flagged for a closer look

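In 3 of 70 groups looked at, over 35 named genes, 1 library lay far from the rest of its group, and chance flags about 1 in 20 groups. Id1, beside H13, was at 4.79 CPM in WT 2 and at most at 1.60 CPM in the other WT libraries. Gpx1 was at 118 CPM in KO 4, with the nearest KO library at 106 CPM. Cat was at 104 CPM in KO 1, with the nearest KO library at 110.3 CPM. Their causes were not tested. None of the 6 members had a library that stood apart in this way.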

How the results depend on the processing

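Tmem181b-ps passed in all 17 alternatives and no other member passed in any, so the count of members called was 1 throughout. The number of genes called moved from 418 to 908 with DESeq2, to 118 without KO 1 and KO 4, and to between 97 and 697 when 1 library was left out (leaving out WT 3 gave 97, WT 4 134, WT 5 117, KO 3 182, KO 4 103 and WT 2 697). The number of neighbours called moved from 3 to 0 without KO 1 and KO 4 and to 1 to 3 when 1 library was left out, with 1 without WT 3, WT 4, WT 5, KO 3 or KO 4. Windows of 250 and 1000 kb gave 3 neighbours each. Titles share replicate numbers, but same-numbered WT and KO libraries did not deviate together (correlations of -0.07 to 0.1 by title and -0.26 to 0.1 by bracketed number, with 0 of 4 KO libraries closest to their own number in either). A replicate block by title number left 26 genes and 1 neighbour called, and Btaf1 (edgeR adjusted p = 0.0544), Cfl2 (0.108) and Cep112 (0.095) no longer passed. With the bracketed number, 443 genes were called. The sign for Tmem181a turned in 4 of 17 alternatives. Depth limits Tmem181a most, at 146 to 218 reads per library.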

Other observations

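Several low-count genes of these loci did not enter the test. Dynlt1b, one of the dynein light chain genes among the Tmem181 copies, had 3, 7, 10, 2 and 5 counts in WT 1 to WT 5 and 9, 15, 13 and 15 counts in KO 1 to KO 4, which overlap between the groups at 9 and 10 counts. Of the other genes reported to vary between B6 substrains, Crb1, the gene of the retinal degeneration allele of C57BL/6N, had 3 counts over all libraries, Nlrp12 had 1 and Naip1 had 1.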
